A study of Drosophila melanogaster with 3 samples.

Results

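The aminoacyl-tRNA synthetase genes of *Drosophila melanogaster* were examined for binding of CG12391-eGFP in whole embryos. Members were the protein-coding genes of the Ensembl annotation on genome build dm6 whose symbol is made of 1 or 2 three-letter amino acid codes followed by RS, with or without the suffix -m. This rule uses names alone and found 33 genes among the 13945 protein-coding genes on the chromosome arms. Of these, 18 carry no suffix and are called cytoplasmic here, and 15 carry -m, which marks the enzymes of the mitochondrion. The data are a chromatin immunoprecipitation with sequencing (ChIP-seq) of a transgenic fly line with a stably expressed CG12391 fusion that carries GFP at its C terminus, pulled down with an antibody against GFP. All 3 samples are biological replicates of this line, taken as embryos of both sexes pooled at 0 to 24 h, so there was no second genotype, stage or treatment to compare. The promoter that drives the tagged copy was not given in the sources used here, and a whole embryo mixes many cell types.

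Each synthetase joins an amino acid to its matching tRNAs, which supplies the ribosome with charged tRNA. Mitochondria have their own tRNAs and ribosomes, and their synthetases are encoded in the nucleus, often by separate genes. Where the annotation holds no -m gene for an amino acid, a single gene can serve both compartments, as GlyRS and LysRS are known to do in animals. In the fly, GluProRS encodes a fusion of the glutamyl and prolyl enzymes. Being needed in every cell that makes protein, these genes belong to the housekeeping genes, many of which lie head to head with a neighbour on the other strand.

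A gene was counted as bound when the summit of a peak, the position of its maximum, lay within 500 bp of any of its transcription start sites (TSSs). The sequences at some of these summits are shown first, because the summits of both classes differed widely in base composition. Each is the top strand of the Release 6 assembly, with 50 bases on each side of the summit of the strongest peak of the gene. Capitals mark the longest run made of A and T alone. IleRS, GluProRS and ThrRS are 3 of the 4 members with the strongest peaks. ProRS-m had the strongest peak of the -m genes, ArgRS-m and LeuRS-m the G+C-richest windows shown, and GlnRS the only window with the short BEAF-32 site CGATA, which follows its capitals. They lie at chr3L:22288445-22288545 (IleRS), chr3R:23958479-23958579 (GluProRS), chr2L:12103500-12103600 (ThrRS), chr3L:2651913-2652013 (ProRS-m), chr3R:7886875-7886975 (ArgRS-m), chr3L:4825738-4825838 (LeuRS-m) and chr3R:25265721-25265821 (GlnRS).
IleRS: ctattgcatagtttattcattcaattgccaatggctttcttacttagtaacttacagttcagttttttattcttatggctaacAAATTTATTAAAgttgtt
GluProRS: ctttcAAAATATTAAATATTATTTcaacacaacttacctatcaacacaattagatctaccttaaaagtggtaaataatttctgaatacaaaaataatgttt
ThrRS: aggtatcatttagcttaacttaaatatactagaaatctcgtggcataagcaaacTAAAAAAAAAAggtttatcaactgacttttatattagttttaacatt
ProRS-m: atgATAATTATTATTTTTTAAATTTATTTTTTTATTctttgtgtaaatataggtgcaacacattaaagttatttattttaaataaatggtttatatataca
ArgRS-m: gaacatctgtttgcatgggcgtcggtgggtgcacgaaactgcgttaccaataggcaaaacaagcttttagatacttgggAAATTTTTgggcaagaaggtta
LeuRS-m: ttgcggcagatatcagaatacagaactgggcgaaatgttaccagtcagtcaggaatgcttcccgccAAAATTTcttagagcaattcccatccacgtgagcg
GlnRS: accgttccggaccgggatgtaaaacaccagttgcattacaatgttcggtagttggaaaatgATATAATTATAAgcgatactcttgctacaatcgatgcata

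A and T made up 86.1% of the ProRS-m window, whose longest run of A and T was 33 bases, and 78.2% of the GluProRS window, with a run of 19. IleRS and ThrRS were at 73.3% and 75.2%. In contrast, the LeuRS-m window was 52.5% A+T with a longest run of 7 bases, and the ArgRS-m window 55.4% with a run of 8. Over the 21 bound members the median was 74.3% (range 52.5% to 86.1%), against a median of 68.3% over the 4000 summits at promoters of protein-coding genes. The cytoplasmic and -m medians were 74.8% (14 genes) and 70.3% (7 genes), with ranges that overlapped. None of the 21 windows held TATCGATA, the DNA replication-related element bound by DREF and BEAF-32, on either strand, which allows a share of up to 16.1% (exact upper 95% bound, counting error only). This word was found at 4.80% of all promoter summits. GGTCACACT, the Motif 1 element, and CATCNCTA, Motif 7, were likewise in none of the 21, against 2.27% and 2.75% of all promoter summits. CGATA, which TATCGATA contains, was in 1 of 21 windows, or 4.76%, against 23.8% of all promoter summits. The exact upper 95% bound for the members was also 23.8%, so so few windows do not set the 2 shares apart. These are matches of letters in such windows and say nothing of the factors that bind such words.

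Values come from 5 deposited peak lists, 1 for each replicate, 1 called on all replicates pooled, and 1 thresholded by the irreproducible discovery rate (IDR). The IDR is a measure of how alike peaks rank across replicates. At each bound member, however, signal and rank were the same in the IDR-thresholded and pooled lists. The IDR-thresholded list thus acted at the members as a cut by pooled signal. A bound gene need not rank alike in the replicates, and GlnRS and LeuRS-m each lacked a summit within 500 bp in 1 replicate. The IDR-thresholded list held 8522 peaks and the other lists 30000 each, so list length does not measure depth, and read depth is unknown. Signal is the authors' measure of peak strength, in units whose scaling was not given in the sources used here, and was compared within a list only. In the replicates, the 8522 peaks of highest signal on the arms are called top peaks, so that lists of equal length are compared. All lists come from the same 3 alignments and are not independent of each other. No test over genes was made, because genes are not replicates.

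Synthetase genes were bound more often than the genome at large in the IDR-thresholded list, with a higher share among the cytoplasmic genes. Of the 33 genes 21 were bound, or 63.6% (exact Clopper-Pearson 95% interval 45.1% to 79.6%), against 34.4% of all protein-coding genes. The cytoplasmic genes were bound in 14 of 18 cases, or 77.8% (52.4% to 93.6%), and the -m genes in 7 of 15, or 46.7% (21.3% to 73.4%). These intervals, for counting error only, overlap, and that of the -m genes holds the 34.4% of all genes. Among the top peaks of the replicates, cytoplasmic genes were bound in 12, 13 and 15 of 18 cases in replicates 1 to 3, with a mean share of 74.1% ± 8.49 (SD, n = 3). The -m genes were bound in 5, 7 and 8 of 15 cases, a mean of 44.4% ± 10.2 (SD, n = 3). All protein-coding genes were at 35.3%, 32.8% and 35.3% in the same replicates, so the cytoplasmic share lay above the background in each, while the -m share lay below it in replicate 1 (33.3%) and above it in replicates 2 and 3. With all peaks of the replicate lists, 17, 16 and 18 cytoplasmic genes and 6, 8 and 9 -m genes had a summit, against 53.9%, 51.4% and 55.0% of all genes. In the pooled list, 17 of 18 cytoplasmic genes had a summit, or 94.4%, against 7 of 15 -m genes and 52.2% of all genes.

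**Figure D1:**
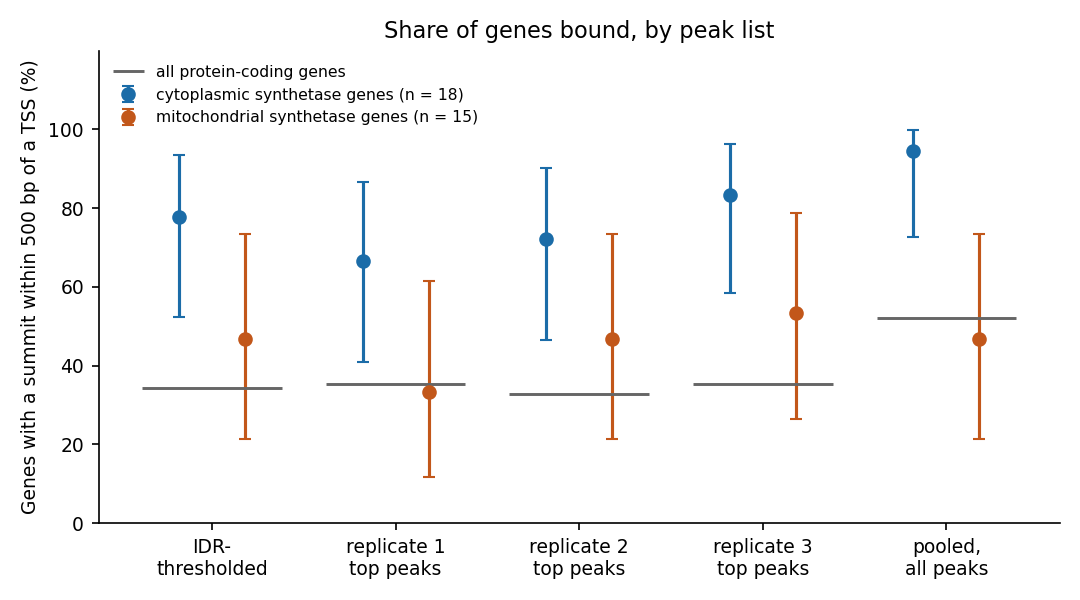
Share of genes (%) with a summit within 500 bp of a TSS in the IDR-thresholded list, the top peaks of each replicate and the pooled list, for the 18 cytoplasmic and 15 -m synthetase genes (points, with exact 95% intervals that cover counting error only) and for all 13945 protein-coding genes (grey lines). Cytoplasmic genes sit between 66.7% and 94.4%, above the grey line in all 5 sets of peaks, and -m genes between 33.3% and 53.3%, on both sides of it.

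Within 500 bp of a TSS, the strongest summits all lay at cytoplasmic genes. IleRS, which charges isoleucine tRNA, had an IDR-thresholded signal of 2548, rank 205 in the list, at a peak on 3L, 22288137 to 22288744. Its signal in replicates 1, 2 and 3 was 423 (rank 242), 1568 (rank 182) and 507 (rank 335). The peak was thus near the head of each list. SerRS, the seryl enzyme, followed with 1873 (rank 427; 2L, 3037180 to 3037594) and replicate signals of 241 (rank 825), 1210.3 (rank 332) and 426 (rank 481). GluProRS had a signal of 1634 (rank 554; 3R, 23958293 to 23958749) and replicate signals of 237 (rank 846), 1015 (rank 518) and 363 (rank 664). ThrRS, the threonyl enzyme, stood at 1518 (rank 653; 2L, 12103320 to 12103785), with 244 (rank 808), 868 (rank 711) and 387 (rank 582) in the replicates. These 4 genes ranked within the strongest 1000 peaks of each replicate, and the order of SerRS, GluProRS and ThrRS changed from replicate to replicate.

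ValRS, the valyl enzyme, had a signal of 1061 (rank 1248; 2R, 13198253 to 13198638), and 171 (rank 1526), 690.1 (rank 1074) and 213 (rank 1682) in the replicates. AspRS, the aspartyl enzyme, had 960.2 (rank 1461; 2R, 12879745 to 12880349), and 68.4 (rank 6346), 793 (rank 845) and 95.04 (rank 5111). AspRS was thus strong in replicate 2 and much weaker by rank in replicates 1 and 3. AspRS, ValRS and AsnRS each had 2 IDR-thresholded summits within 500 bp. Those of AspRS lay 254 and 47 bp upstream of an internal TSS, those of ValRS 356 and 143 bp, and those of AsnRS 96 and 297 bp. The TSS of the canonical AspRS transcript, at 12877004, had no IDR-thresholded summit within 500 bp. Its pooled summits were weak, with signals of 81.5 (rank 19399) and 65.6 (rank 23296).

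MetRS, AsnRS, AlaRS and GlyRS had intermediate signals. MetRS, the methionyl enzyme, was at 926 (rank 1538) and even across the replicates, with 169 (rank 1559), 529 (rank 1641) and 244 (rank 1316). AsnRS, the asparaginyl enzyme, was at 864 (rank 1736), with 88.6 (rank 4504), 546 (rank 1555) and 218 (rank 1611). AlaRS, the alanyl enzyme, was at 620.4 (rank 2749), with 113 (rank 3140), 353 (rank 2885) and 132 (rank 3359). AsnRS was lower by rank in replicate 1 than in the others, whereas AlaRS stayed within a narrow range. GlyRS, the glycyl enzyme, was at 588 (rank 2980), with 63.2 (rank 6961), 357 (rank 2853) and 123 (rank 3705). GlyRS, too, was lowest by rank in replicate 1.

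The weakest bound cytoplasmic genes charge leucine, arginine, glutamine and tyrosine. LeuRS had 447 (rank 4249) and 81.1 (rank 5089), 239.8 (rank 4693) and 115 (rank 4013) in the replicates, a top peak in each. ArgRS had 338 (rank 5776) and 33.7 (rank 14678), 233 (rank 4850) and 46.3 (rank 10876), a top peak in replicate 2 alone. GlnRS had 335 (rank 5832) and 50.6 (rank 9071), no summit within 500 bp and 118 (rank 3896), a top peak in replicate 3 alone. TyrRS had 302 (rank 6531) and 61.9 (rank 7153), 196 (rank 5782) and 49.95 (rank 10125), and fell outside the top peaks of replicate 3. ArgRS, GlnRS and TyrRS were the 3 bound cytoplasmic genes that were not top peaks of every replicate.

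**Figure D2:**
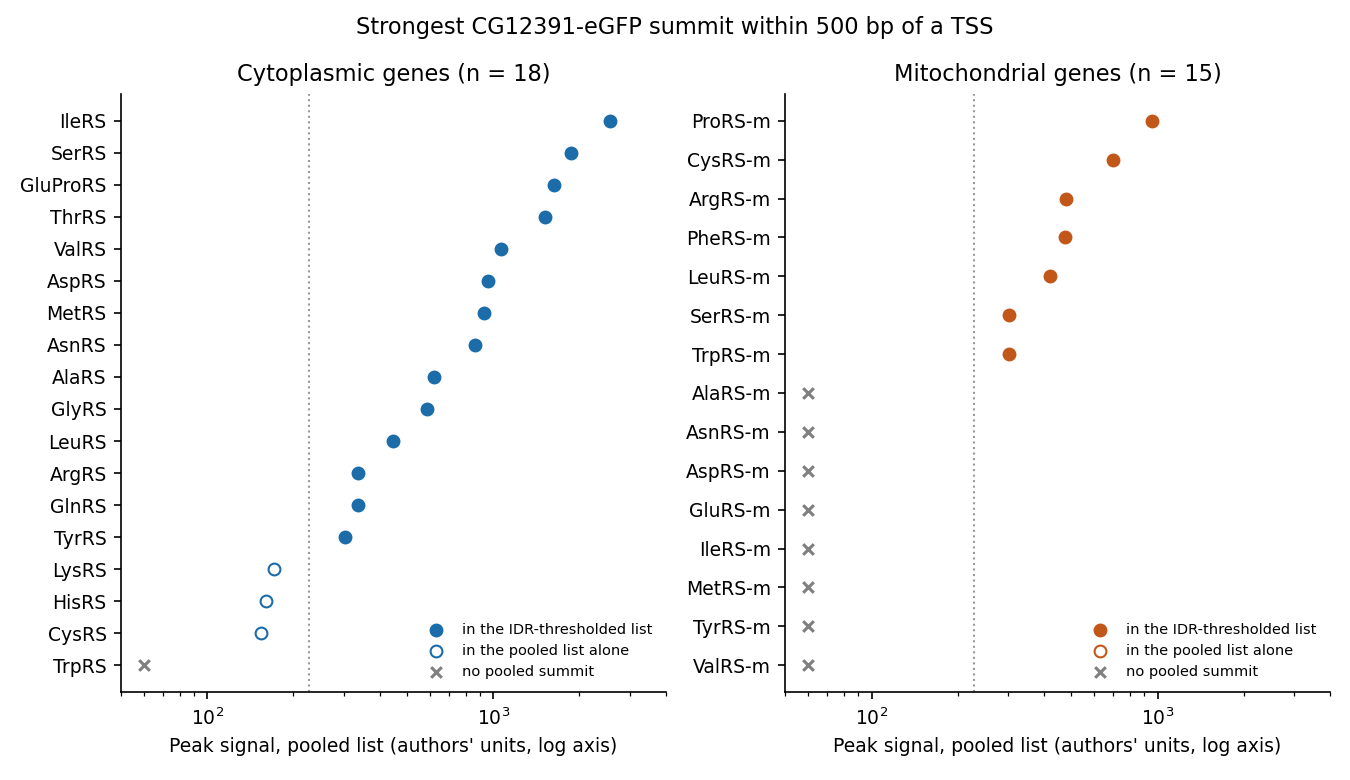
Signal of the strongest pooled-list summit within 500 bp of a TSS for each gene (authors' units, log axis). Filled points are also in the IDR-thresholded list, open points are in the pooled list alone, crosses mark genes with no pooled summit (placed at the left edge), and the dotted line is the lowest IDR-thresholded signal, 227.2. All 3 genes with a weak pooled summit are cytoplasmic, and 8 of the 9 genes with none are -m genes.

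The -m genes were either bound in the IDR-thresholded list or without any pooled summit. ProRS-m, the mitochondrial prolyl enzyme, had a signal of 959 (rank 1468; 3L, 2651778 to 2652139), close to that of AspRS, and 193 (rank 1251), 599 (rank 1351) and 169 (rank 2389) in the replicates. CysRS-m, for cysteine, followed with 699.8 (rank 2339) and 90.8 (rank 4365), 413 (rank 2353) and 172 (rank 2345). ProRS-m was the only -m gene above the cytoplasmic median of 895. ArgRS-m, for arginine, had 477 (rank 3949) and 93.5 (rank 4185), 237 (rank 4752) and 112 (rank 4148). PheRS-m, for phenylalanine, had 473 (rank 3982) and 102 (rank 3687), 273 (rank 4013) and 91.01 (rank 5375). These 4 were the only -m genes among the top peaks of each replicate. They are 26.7% of the 15 -m genes, near the 26.3% of all protein-coding genes that were top peaks in every replicate, while the 11 such cytoplasmic genes are 61.1% of 18.

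The other 3 bound -m genes were each a top peak in 2 replicates. LeuRS-m, for leucine, had 421 (rank 4569) and no summit within 500 bp, 167 (rank 6723) and 132 (rank 3391), and the nearest summit in replicate 1 lay 805 bp away. SerRS-m, for serine, had 304 (rank 6484) and 53.2 (rank 8554), 164 (rank 6841) and 86.9 (rank 5665). TrpRS-m, for tryptophan, had 302 (rank 6523) and 77.95 (rank 5380), 128 (rank 8681) and 86.8 (rank 5677). SerRS-m in replicate 1 and TrpRS-m in replicate 2 fell just outside the top 8522 peaks.

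In the IDR-thresholded list 12 members were not bound, of which 4 were cytoplasmic. Among these, CysRS, HisRS and LysRS, for cysteine, histidine and lysine, had a summit in the pooled list and in every replicate, but a weak one. The pooled signals were 154, 159.8 and 170.4 (ranks 11817, 11469 and 10897), below the lowest IDR-thresholded signal of 227.2. As that list acted at the members as a cut by pooled signal, lying below it restates that these genes were not bound. CysRS had replicate signals of 48.6 (rank 9503), 35.2 (rank 24358) and 62.2 (rank 8160). HisRS had 44.3 (rank 10626), 74.05 (rank 13629) and 41.3 (rank 12063). LysRS had 34.5 (rank 14209), 65.7 (rank 14930) and 61.03 (rank 8299). CysRS and LysRS were top peaks in replicate 3 alone and HisRS in none. The HisRS TSS lies inside Bx, which encodes a LIM-only protein, so a summit there cannot be assigned to either gene alone. TrpRS, the tryptophanyl enzyme, had a summit in replicate 3 only, 39 bp upstream of the TSS with a signal of 113 and rank 4108. The nearest summits of the other lists lay 6325 to 6347 bp away.

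Of the 8 unbound -m genes, AlaRS-m, GluRS-m, IleRS-m, MetRS-m, TyrRS-m and ValRS-m had no summit within 500 bp in any of the 5 lists. The nearest pooled summit to them was 1807 bp away at GluRS-m and 17369 bp away at MetRS-m. AsnRS-m had a weak summit in replicate 3 alone (signal 43.6, rank 11463). AspRS-m, the mitochondrial aspartyl enzyme, differed from all of these. It was a top peak in replicate 2 (signal 230, rank 4927, 54 bp upstream) and in replicate 3 (signal 97.1, rank 4979, 28 bp upstream), but had no summit in replicate 1 and none in the pooled list, whose nearest summit was 1588 bp away. Across the genome, 4850 protein-coding genes had a top peak in at least 2 replicates, and 102 of them, or 2.10%, had no pooled summit within 500 bp.

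**Figure D3:**
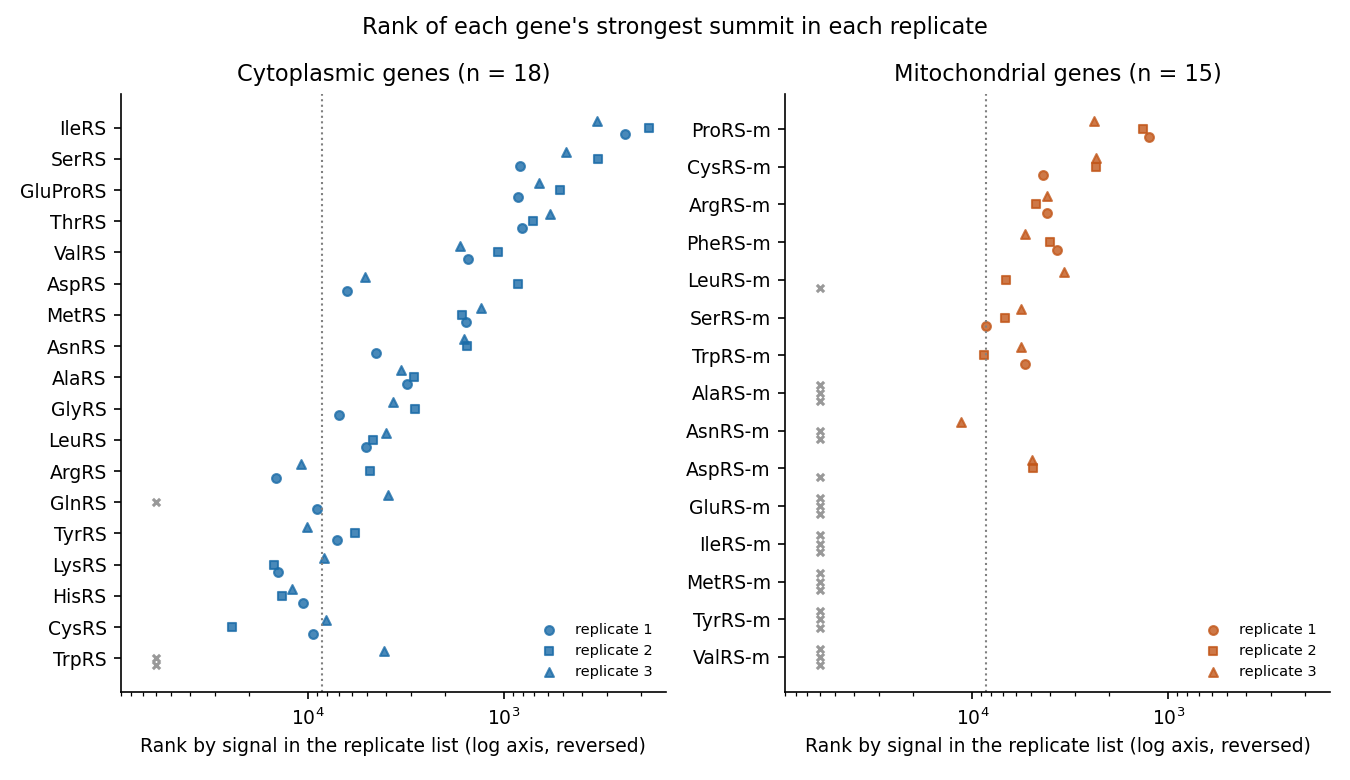
Rank by signal of each gene's strongest summit within 500 bp of a TSS in each replicate list (log axis, strongest to the right; circles, squares and triangles for replicates 1, 2 and 3). Crosses at the left edge mark a replicate with no summit, and the dotted line is rank 8522. IleRS ranks 182 to 335 in the 3 replicates, AspRS 845 to 6346, and 6 of the -m genes have crosses in all 3.

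Separate cytoplasmic and -m genes for the same amino acid could be compared in 12 cases. In the IDR-thresholded list the cytoplasmic gene alone was bound for 7 amino acids (Ala, Asn, Asp, Ile, Met, Tyr and Val), the -m gene alone for 2 (Cys and Trp) and both for 3 (Arg, Leu and Ser). The widest contrast was that of isoleucine, with 2548 at IleRS and no summit in any list at IleRS-m. For serine the signals were 1873 at SerRS and 304 at SerRS-m, whereas for leucine they were nearly equal, 447 and 421, and for arginine the -m gene was the stronger, 477 against 338. The leucine values depended on the distance. Within 1000 bp of a TSS the signal was 2273 at LeuRS-m and still 447 at LeuRS. Cysteine ran the other way, with 700 at CysRS-m and a pooled signal of 154 at CysRS. In the top peaks of the replicates the cytoplasmic gene alone was bound for 9, 6 and 5 amino acids and the -m gene alone for 3, 1 and 1. The lead of the cytoplasmic genes was smaller in replicates 2 and 3, where both genes of a pair were bound in 4 and 5 cases, against 0 in replicate 1.

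The bound share of cytoplasmic genes exceeded that of -m genes by 31.1 percentage points in the IDR-thresholded list. Per replicate the difference was 33.3, 25.6 and 30 points, a mean of 29.6 ± 3.90 (SD, n = 3). It was positive in 3 of 3 replicates, and a two-sided exact sign-flip permutation test over the replicates gave p = 0.25, the smallest this design allows. The difference rested on the distance at which summits were accepted. Within 100 bp of a TSS, 5 of 18 cytoplasmic and 4 of 15 -m genes were bound, a difference of 1.11 points, against 13.1% of all genes. When each summit was given to its single nearest TSS of any gene, 9 of 18 and 7 of 15 were bound, a difference of 3.33 points, against 25.8% of all genes. The 5 genes lost under the nearest TSS, namely ArgRS, AspRS, GluProRS, MetRS and TyrRS, are all cytoplasmic, and the summit of each lay nearer to a neighbour. ValRS stayed bound, but only by its weaker summit, with a signal of 286. Its stronger summit, at 1061, went to another gene.

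Among bound genes the median IDR-thresholded signal was 895 for the 14 cytoplasmic and 473 for the 7 -m genes, a difference of 422, against a median of 562 over all 4801 bound genes. Cytoplasmic signals ran from 302 to 2548 and -m signals from 302 to 959, so the ranges overlapped. In the top peaks of the replicates the medians were 141, 546 and 132 for cytoplasmic genes and 93.5, 237 and 105 for -m genes, higher for the cytoplasmic genes each time. The difference was 47.9, 309 and 27.6 (mean 128 ± 157, SD, n = 3), each on the scale of its own list. With all peaks of the replicate 1 list it was −11.01, and in the pooled list, which adds the weak summits of CysRS, HisRS and LysRS, it was 147. The median signal of all peaks in the IDR-thresholded list was 446.6, and 21.5% of all protein-coding genes, or 62.4% of those bound, had a stronger summit. Of the bound members 11 of 14 cytoplasmic genes (78.6%) and 4 of 7 -m genes (57.1%) did, so the -m share of bound genes was near that of all bound genes.

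Summits lay upstream of the TSS at nearly all bound members. In the IDR-thresholded list 20 of 21 were upstream, with a median position of −120 bp, compared with 89.3% and a median of −131 bp over all bound genes. SerRS was the exception, with its summit 3 bp downstream of a TSS, in the 5′ UTR. This summit also lies inside CG17260, whose opposed TSS is 8 bp from that of SerRS and 11 bp from the summit, so it cannot be assigned to either gene alone. The cytoplasmic summits of this list were farther out, at a median of −157.5 bp, than the -m summits, at −93 bp. Top peaks gave medians of −128.5 and −75 bp in replicate 1 and −179 and −107 bp in replicate 2. The order was reversed in replicate 3, at −68 and −91 bp. SerRS-m had the farthest summit of the IDR-thresholded list among bound members, 417 bp upstream and inside Nagk. Its replicate summits lay 384, 429 and 455 bp upstream. The AlaRS summit, 109 bp upstream, was in the 3′ UTR of the adjacent gene CG13392. Summits of 17 members were intergenic, and AspRS had its summit within its own and the Nmda1 gene.

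**Figure D4:**
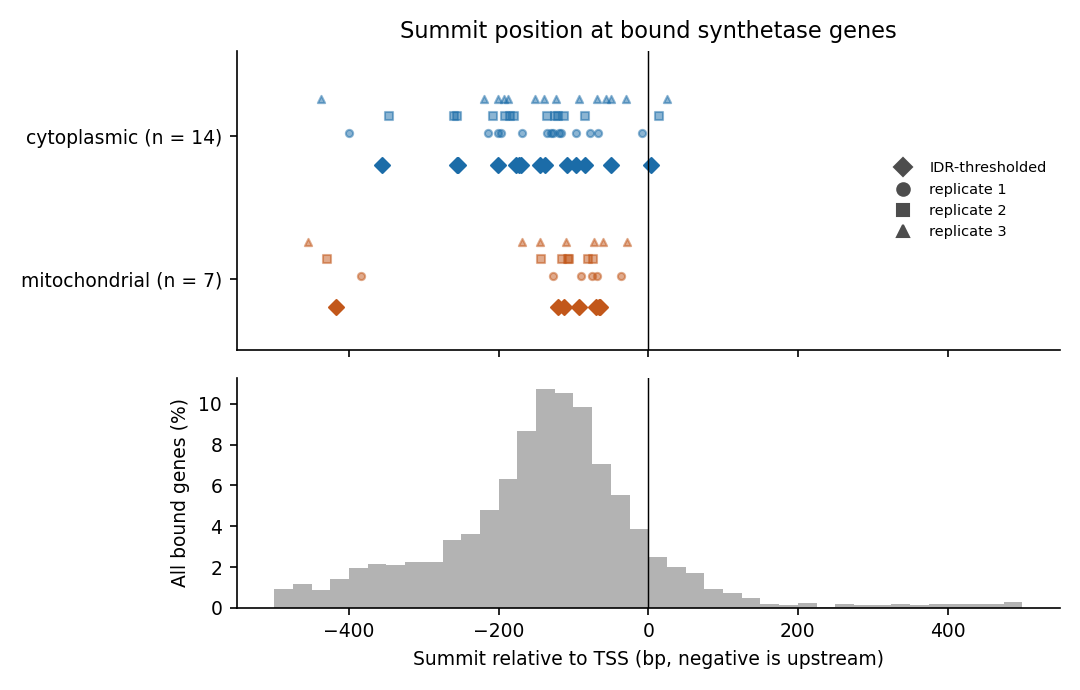
Position of the summit relative to the TSS (bp, negative upstream) for the 14 cytoplasmic and 7 -m genes bound in the IDR-thresholded list (diamonds) and in each replicate list (circles, squares and triangles), above a histogram of all 4801 bound genes (%). All members but SerRS have the IDR-thresholded summit upstream of the TSS.

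Most cytoplasmic synthetase genes lie head to head with a neighbour. A TSS of another protein-coding gene on the opposite strand was within 500 bp of a TSS in 21 of the 33 members, or 63.6%, against 27.8% of all protein-coding genes. These were 14 of the 18 cytoplasmic genes and 7 of the 15 -m genes. Of the genome's genes with such a neighbour 65.0% were bound, against 22.6% of the others. Among cytoplasmic genes, 12 of 14 with such a neighbour and 2 of 4 without were bound, and among -m genes 4 of 7 and 3 of 8. The 2 are AlaRS and ValRS, and ValRS has an opposed TSS, that of Kdm4B, just past the limit at 513 bp. This gene layout thus moved with both class and binding, and its part in the difference between the classes was not tested.

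At 14 of the 16 bound members with such a neighbour the summit lay between both TSSs, so it cannot be assigned to either gene from position alone. IleRS shares its 470 bp interval with Hem, which encodes a subunit of the WAVE complex, and the summit was 170 bp from the TSS of IleRS and 300 bp from that of Hem. GluProRS shares 260 bp with AP-1sigma, a clathrin adaptor subunit gene, with the summit 138 and 122 bp away. LeuRS-m lies opposite Dhc64C, the dynein heavy chain gene, GlyRS opposite Plp, a centrosomal protein gene (177 and 241 bp), and CysRS-m opposite O-fut1, which encodes an O-fucosyltransferase (66 and 102 bp). TyrRS had its summit 255 bp from its own TSS and 40 bp from that of CG33158. The other such pairs were ThrRS with Patsas, MetRS with CG15084, LeuRS with CG17593, ArgRS with CG8578, ArgRS-m with CG17816, AsnRS with DCTN6-p27, GlnRS with RIOK2 and ProRS-m with CG42304. The ProRS-m summit was also within 500 bp of Snup, the GlyRS summit of sstn, and the ValRS summit of Kdm4B, a histone demethylase gene whose nearest TSS is 513 bp from that of ValRS.

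The distance between the opposed TSSs differed between bound and unbound members. The 5 unbound members with such a neighbour had close TSSs, 35 bp apart at AlaRS-m and Fitm, 53 bp at AsnRS-m and ste24a, 55 bp at TyrRS-m and CG3589, 62 bp at LysRS and Hecw, and 115 bp at TrpRS and Vps16A. All 13 members whose opposed TSSs were more than 150 and up to 500 bp apart were bound, compared with 3 of the 8 at up to 150 bp, namely SerRS (8 bp), AspRS (38 bp) and GlnRS (123 bp). The gap of 38 bp at AspRS is to Lfg, whereas its summits lay by an internal TSS 54 bp from one of Nmda1. In the top peaks of the replicates, 11, 13 and 11 of the 13 were bound, and 2, 2 and 5 of the 8. The limit of 150 bp was chosen after these values were seen, and in the counts over all genes both genes of a pair are counted. Over all protein-coding genes the bound share was 54.1% of 1287 genes at up to 150 bp and 70.5% of 2591 genes at more than 150 and up to 500 bp. In the top peaks of the replicates these shares were 55.5% ± 6.01 and 67.9% ± 2.43 (SD, n = 3), higher for the wider spacing in each replicate. The genome thus showed the same direction with a smaller contrast.

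**Figure D5:**
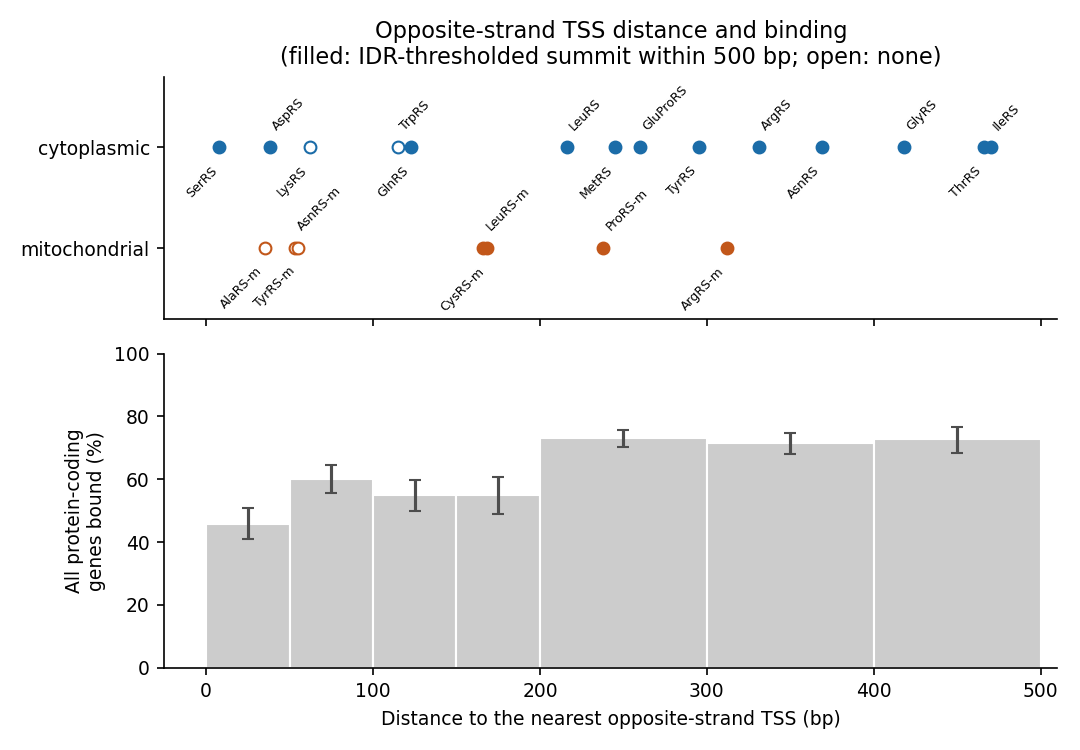
Distance (bp) between opposed TSSs for the 21 synthetase genes with an opposite-strand TSS within 500 bp (top; filled points are bound in the IDR-thresholded list, open points are not) and the bound share (%) of all protein-coding genes by the same distance (bottom; error bars are exact 95% intervals for counting error). The 5 open points lie at 35 to 115 bp, and the bars stand at 45.9% to 60.2% up to 200 bp and at 71.5% to 73.1% beyond it.

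The ribosomal protein genes offer a comparison of the same compartments. Of 92 cytoplasmic ribosomal protein genes 76 were bound, or 82.6%, and of 73 mitochondrial ones 48, or 65.8%, a difference of 16.9 points. Per replicate this difference was 22.3, 16.6 and 16.6 points among top peaks, a mean of 18.5 ± 3.33 (SD, n = 3), below that of the synthetase genes in each replicate (33.3, 25.6 and 30). With all peaks of the replicate lists it was 1.74, 5.57 and −1.56 points, whereas for the synthetase genes it was 54.4, 35.6 and 40 points. Unlike the -m synthetase genes, mitochondrial ribosomal protein genes had more bound members in the pooled list, 80.8% against 65.8%. The gene layout ran the other way in this family. An opposed TSS lay within 500 bp at 39.1% of cytoplasmic and 72.6% of mitochondrial ribosomal protein genes, against 77.8% and 46.7% for the synthetase classes. Of ribosomal protein genes with such a neighbour 91.7% and 77.4% were bound, and of the others 76.8% and 35%. The part of layout in these differences was not tested.

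Other genes of tRNA charging and tRNA maturation were taken from a list of 22 symbols, of which 21 were found in the annotation. Of these 14 were bound in the IDR-thresholded list, or 66.7%, against 34.4% of all protein-coding genes, and 18 had a pooled summit, against 52.2% of all genes. The cytoplasmic phenylalanyl enzyme has 2 subunits whose symbols the naming rule does not cover. Both were bound, alpha-PheRS with a signal of 562 (replicates 76.7, 330.4 and 160.4) and beta-PheRS with 768 (198, 355 and 224), next to 473 at PheRS-m. Slimp, a paralogue of the seryl enzyme in insect mitochondria, was bound with 383, compared with 304 at SerRS-m. GatA and GatC, subunits of the amidotransferase that forms glutaminyl-tRNA in mitochondria, were bound with 740 and 650, whereas GatB had a summit in replicate 1 alone (signal 42.8). RNaseZ, which trims the 3′ end of tRNA precursors, had the strongest peak of the list, 996. None of the 3 AIMP genes, which encode scaffold proteins of the multisynthetase complex, was bound. AIMP2 and AIMP3 had weak pooled summits of 166 and 140, and AIMP1 had none in any list. Among these listed genes, all 8 with opposed TSSs more than 150 and up to 500 bp apart were bound, and 2 of the 7 at up to 150 bp. The shares of all protein-coding genes at these spacings were 70.5% and 54.1%. The limit of 150 bp was, as above, chosen after values of these data were seen.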

How the data were processed

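CG12391-eGFP was mapped by ChIP-seq in 3 biological replicates of whole embryos, with chromatin sonicated to 200 to 800 bp per the labels. Peaks on dm6 were deposited by the authors as 1 list per replicate, each against a control, 1 pooled list and 1 IDR-thresholded list made from the other 4, per the deposited file lists. For the aligner, peak caller and IDR threshold, the sources used here name no tool or setting. Signal is the authors' deposited value per peak, with unknown scaling and unknown depth. The deposited summit offset was added to the peak start, and in 2 to 12 peaks per list it reached past the peak's last base. Genes and TSSs came from Ensembl release 115 and sequence from Release 6 of RefSeq, whose coordinates are those of dm6.

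Summits were joined to TSSs with Python 3.11.15, pandas 2.3.3 and numpy 2.4.6, checked on simulated data with planted summits. Signal per gene is that of its strongest summit within 500 bp. The Y, which held no peak, and 22 mitochondrial peaks of replicate 1 were left out. Intervals are exact Clopper-Pearson 95% intervals from scipy 1.17.1. The only test was a two-sided exact sign-flip test over replicates.

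The members, gene lists, motifs and alternatives were chosen with earlier results of these data known. Every member is named, and full values are given for the 6 strongest, those without a pooled summit, those in only some lists, those of amino acids where 1 gene of a pair is bound, and those whose summit lies by another gene. Alternatives were the distance, the nearest TSS, the stronger 50% of peaks, the pooled list, the peak interval, shared promoters, partnerless genes and each replicate left out.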

Additional observations from a re-analysis of the deposited data

How the results depend on the processing

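The cytoplasmic share stayed above the -m share under each of the alternatives run, but the size of the difference depended on how summits were assigned. Within 100 bp of a TSS the cytoplasmic share was 27.8%, the -m share 26.7% and the difference 1.11 points, and within 1000 bp the cytoplasmic share was 88.9%, against 38.2% of all genes, and the difference 42.2 points. With the single nearest TSS the cytoplasmic share was 50% and the difference 3.33 points. In the stronger 50% of IDR-thresholded peaks the shares were 61.1% and 26.7%, against 21.5% of all genes. In the pooled list the cytoplasmic share was 94.4%, the difference 47.8 points and the difference in median signal 147. Cytoplasmic genes whose amino acid has a -m gene gave a difference of 37.9 points. Without members that share a promoter it was 29.2 points, from 2 bound of 3 cytoplasmic and 3 bound of 8 -m genes. Among members with no opposed TSS within 500 bp, 2 of 4 cytoplasmic genes (50%) and 3 of 8 -m genes (37.5%) were bound. The share of all protein-coding genes without such a neighbour was 22.6%. The size of the difference at such genes thus rests on very few cytoplasmic genes. The 2 bound ones are AlaRS and ValRS. The opposed TSS of Kdm4B is 513 bp from that of ValRS, just past the limit, and the ValRS summit is within 500 bp of both genes. When the peak interval was used in place of the summit, the same 21 members were bound.

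In peaks shared by the other replicates, leaving out each replicate in turn gave cytoplasmic shares of 61.1% to 66.7%, -m shares of 26.7% (without replicate 3, where all genes were at 27.4%) to 40%, all-gene shares of 27.4% to 28.9%, differences of 21.1 to 40 points and differences in median signal of 355 to 485. This setting also asks that a peak be a top peak of both remaining replicates, so it removes peaks by construction, and ArgRS and GlnRS were lost each time. The mean difference per replicate was 27.8 to 31.7 points over the remaining pairs, a setting chosen after seeing the data, and 43.3 points with all peaks of the replicate lists. No paired analysis was possible because the samples form 1 group, so no groups share replicate numbers. The difference between the gene classes was taken within each replicate. Unknown read depth limits what the absence of a summit means.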
